A study of Mus musculus with 8 samples.

Results

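Core genes of transforming growth factor beta (TGF-beta) and activin signalling, 10 in number, were followed in mouse epididymal fat: the ligand genes Tgfb1, Tgfb2, Tgfb3, Inhba and Inhbb, the receptor genes Tgfbr1, Tgfbr2 and Acvr1c, and the intracellular genes Smad3 and Smad7. They were chosen by symbol, and all 10 were found among the 16505 genes of the expression table. Messenger RNA was sequenced from the epididymal white adipose tissue, a visceral fat depot, of C57BL/6 mice on a high fat diet for 12 weeks. There were 4 libraries of wild-type mice (WT) and 4 of mice labelled as a miR-181 double knockout, below the knockout, with DKO as its name in plots. The comparison asks which transcripts differ between the fat of the knockout and that of WT. The labels do not name the deleted loci, a tissue restriction of the deletion, age, housing or litter, and each p-value therefore reflects the spread among these 8 samples alone.

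TGF-beta is secreted in a latent form, bound by latency proteins in the matrix or on the cell surface, and must be released before it binds its receptors. A ligand brings a type II receptor kinase (Tgfbr2 for TGF-beta, Acvr2a or Acvr2b for activins) together with a type I receptor kinase (Tgfbr1, also called ALK5, for TGF-beta, and Acvr1b or Acvr1c, also called ALK4 and ALK7, for activins and related ligands), which phosphorylates Smad2 and Smad3. These enter the nucleus with Smad4, and the inhibitory Smad7, itself a target, limits the signal. In fat, TGF-beta is known for driving matrix production and restraining adipocyte differentiation, and ALK7 is known as a receptor of mature adipocytes that restrains lipolysis.

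The miR-181 family is shown first because its seed, the bases that pair with a messenger RNA, defines the sites searched in these 10 genes. Which of its loci were deleted is not stated in the labels. All 4 mature miR-181 sequences in RefSeq (GRCm38.p6) share 1 seed, printed in capitals (bases 2 to 8 from the 5′ end):
miR-181a-5p: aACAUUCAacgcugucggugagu
miR-181b-5p: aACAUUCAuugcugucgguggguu
miR-181c-5p: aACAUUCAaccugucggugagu
miR-181d-5p: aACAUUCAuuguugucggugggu
miR-181a and miR-181b are each encoded at 2 loci on the plus strand, at chr1:137966468-137966490 and chr2:38852741-38852763 for miR-181a, and at chr1:137966650-137966673 and chr2:38853845-38853868 for miR-181b. miR-181c lies at chr8:84178924-84178945 and miR-181d at chr8:84178759-84178781, both on the minus strand.

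The complement of that seed, TGAATGT, was searched on the transcribed strand of each gene's longest 3′ UTR in GENCODE M21 (GRCm38). It occurred in 4 of the 10 genes, against 18.5% of the UTRs of 12853 tested genes with a UTR. The receptor genes Tgfbr1 and Acvr1c each held 2 matches and Inhba and Smad7 1 each. The windows for Tgfbr1, Acvr1c and Inhba are given 5′ to 3′ with the match in capitals, because these sites could pair with the sequences above:
Tgfbr1, UTR bases 416 to 422: cttggttcacttTGAATGTactgttctata
Tgfbr1, UTR bases 1164 to 1170: atatagttaataTGAATGTacaagtgtagg
Acvr1c, UTR bases 5427 to 5433: gggagttttgatTGAATGTgggtctgtgta
Acvr1c, UTR bases 6940 to 6946: cacaggctcaaaTGAATGTacataaggact
Inhba, UTR bases 1652 to 1658: ttcttaaaacaaTGAATGTttgtgtgcaaa
Both Tgfbr1 matches and the second Acvr1c match are followed by an A, the base that lies opposite the first base of the microRNA. The UTRs of Tgfbr1, Acvr1c, Inhba and Smad7 are 4154, 7465, 4492 and 1570 bases long, and the median tested UTR is 1186 bases. Those of the genes without a match run from 135 (Tgfb1) to 6085 bases (Tgfbr2). The shares with a match were not compared at equal UTR length, and Inhba is not among the 12853 tested genes. No match was found in the UTRs of Tgfb1, Tgfb2, Tgfb3, Tgfbr2, Inhbb or Smad3. A match of letters is a description and not a shown site of binding. Among all tested genes with a UTR, the median log2 change between knockout and WT was 0.13 with the match and 0.19 without.

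Levels are log2 reads scaled to the library total (log2 CPM), group values are means ± SD with n = 4, and each change is the knockout mean minus the WT mean (a log2 fold change) ± its SE in limma, with p-values adjusted by Benjamini-Hochberg over 13797 tested genes. The libraries held 3736881 to 76838584 reads, and those of the knockout included the shallowest and the 3 deepest. Ribosomal RNA took 3.07% to 11.5% of reads in WT replicates 1, 3 and 4 and knockout replicate 1, and at most 0.334% in the other 4 libraries. Values within these classes are given below as the class with more ribosomal RNA, then the class with less. They have no error because each class has only 1 library of one group. The class with more held 3736881 to 6790005 reads per library and the class with less 15410736 to 76838584. Ribosomal RNA class and depth therefore cannot be told apart. Epididymis markers took 1.34% to 2.84% of reads in WT replicate 2 and knockout replicates 2 and 4, and at most 0.00560% in the other 5. The adipocyte markers fixed for the tissue check, including Adipoq and Plin1, had reads in every library.

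Of the 9 genes that passed the filter on low levels (a mean of at least 0 log2 CPM), 6 passed the threshold at an adjusted p under 0.05. This threshold was passed by 38.8% of all tested genes. Tgfb3, Acvr1c and Smad7 were higher in the knockout, beside 22.7% of all tested genes, and Tgfb1, Tgfbr1 and Tgfbr2 were lower, beside 16.1%. Each of these 6 had knockout values that did not overlap the WT values, as did 37.4% of all tested genes. All 4 knockout values lay above WT for 3 of them (20.8% of all tested genes) and below WT for 3 (16.6%). Tgfb2, Inhbb and Smad3 did not pass, and Inhba lay under the filter. The median change of the 9 tested genes was 0.26, against 0.18 over all tested genes, and it turned to −0.0308 under quantile normalization and −0.0376 under voom on whole reads.

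**Figure D1:**
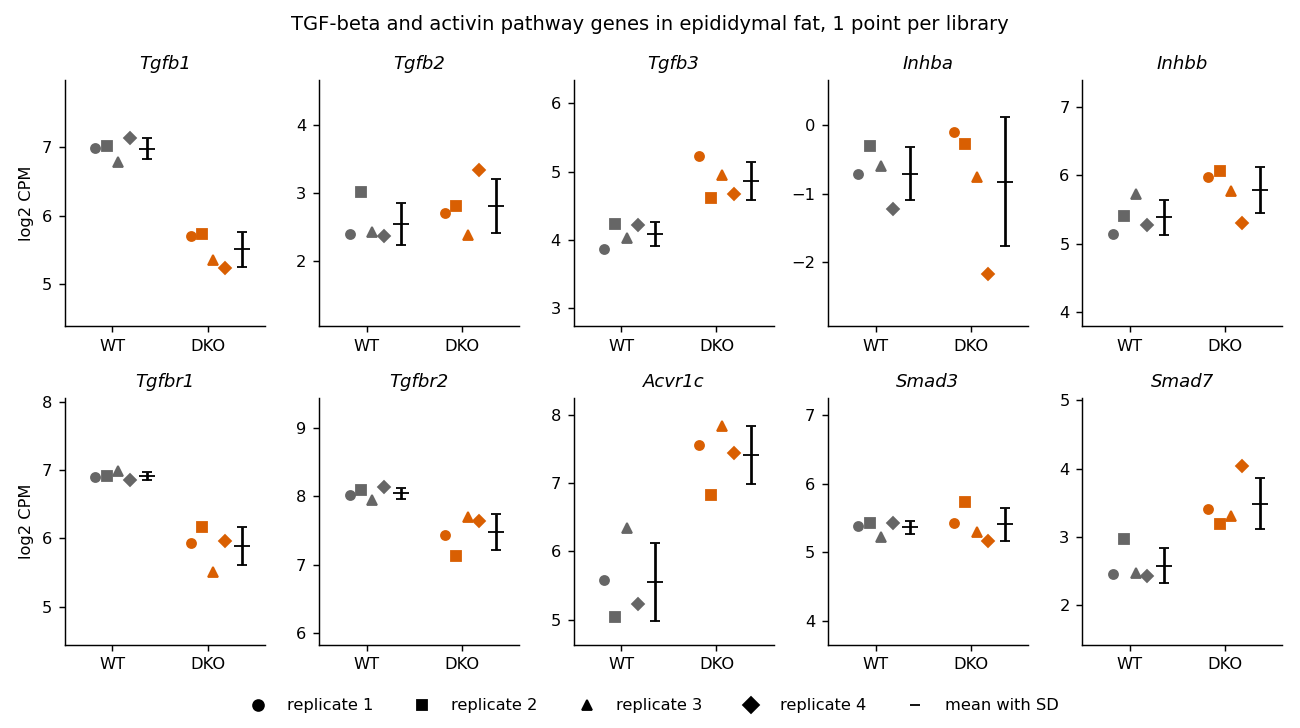
Level of each of the 10 genes (y axis, log2 CPM) in the 4 WT (grey) and 4 knockout (DKO, orange) libraries, 1 point per library with the marker shape giving the replicate number, and the mean with SD as a black bar. The panels span the same number of log2 units; Tgfb1 sits at 6.78 to 7.14 in WT and 5.24 to 5.74 in the knockout, and Acvr1c at 5.05 to 6.34 and 6.83 to 7.83.

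Among the ligands, Tgfb1 fell and Tgfb3 rose. Tgfb1 encodes the isoform most studied in inflammation and fibrosis, and stood at 6.99, 7.02, 6.78 and 7.14 log2 CPM in WT replicates 1 to 4 and at 5.71, 5.74, 5.35 and 5.24 in knockout replicates 1 to 4. The highest knockout level was below the lowest WT level by over 1 log2 unit. The means were 6.98 ± 0.15 and 5.51 ± 0.25, a change of −1.47 ± 0.14 (2.78-fold lower, limma adjusted p = 0.000108). Its change was −1.26 and −1.58 within the ribosomal RNA classes.

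Tgfb3 encodes a closely related isoform that uses the same receptors. Its levels were 3.87, 4.23, 4.04 and 4.22 log2 CPM in WT and 5.22, 4.61, 4.95 and 4.68 in the knockout. All 4 knockout libraries were above all 4 WT libraries, the nearest pair being WT replicate 2 and knockout replicate 2. The change was 0.78 ± 0.16 (1.71-fold higher, limma adjusted p = 0.0057), and 1.18 and 0.51 within the ribosomal RNA classes.

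Tgfb2, the third isoform, had 2.40, 3.01, 2.43 and 2.38 log2 CPM in WT and 2.71, 2.82, 2.38 and 3.34 in the knockout. The groups overlapped, with WT replicate 2 above 3 of the 4 knockout libraries. The change of 0.26 ± 0.26 did not pass the threshold (limma adjusted p = 0.445) and was 0.31 and −0.17 within the ribosomal RNA classes, opposite in sign. It rests on as few as 21 reads in WT replicate 1.

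Because the isoforms differ in transcript length, their levels were compared as reads per kilobase of coding transcript, scaled to the library total like CPM (RPKM). On that scale Tgfb1 made up 91.7%, 89.4%, 89.6% and 90.9% of the sum of the 3 isoforms in WT and 66.2%, 74.1%, 64.9% and 64.5% in the knockout. The share of Tgfb1 was thus lower in every knockout library than in any WT library, with means of 90.4% ± 1.1 and 67.4% ± 4.5 (SD, n = 4). Tgfb3 made up 7.82% ± 0.81 in WT and 28.0% ± 4.4 in the knockout, and its RPKM was 5.03 ± 0.60 and 8.72 ± 1.72. Tgfb1 remained the most abundant isoform in all 8 libraries for this length. With the length of all annotated exons in place of the coding transcript the mean share of Tgfb1 was 80.6% and 47.7%, and Tgfb3 exceeded Tgfb1 in knockout replicates 1, 3 and 4.

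The activin subunits showed no called change. Inhbb, whose protein forms activin B as a dimer, stood at 5.14, 5.40, 5.73 and 5.27 log2 CPM in WT and 5.98, 6.06, 5.78 and 5.31 in the knockout. Knockout replicates 1, 2 and 3 were above every WT library, and knockout replicate 4 was level with WT replicate 4. The change was 0.40 ± 0.19 (limma adjusted p = 0.125), and without knockout replicate 4 it was 0.55 and passed (adjusted p = 0.0275). Within the ribosomal RNA classes the Inhbb change was 0.60 and 0.31.

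Inhba, whose protein forms activin A, was close to the limit of detection. It was counted in 2, 12, 4 and 2 reads in WT and 3, 63, 21 and 4 reads in the knockout, which is −0.71, −0.30, −0.59 and −1.23 log2 CPM in WT and −0.09, −0.28, −0.76 and −2.18 in the knockout. The groups overlapped fully, and a difference was not detectable at this depth (−0.12 ± 0.56, limma adjusted p = 0.889 in the fit with no filter). Without knockout replicate 4 the Inhba value was 0.33, of the opposite direction. Per kilobase, Inhbb made up at least 98.8% of the sum of these 2 subunits in each library.

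**Figure D2:**
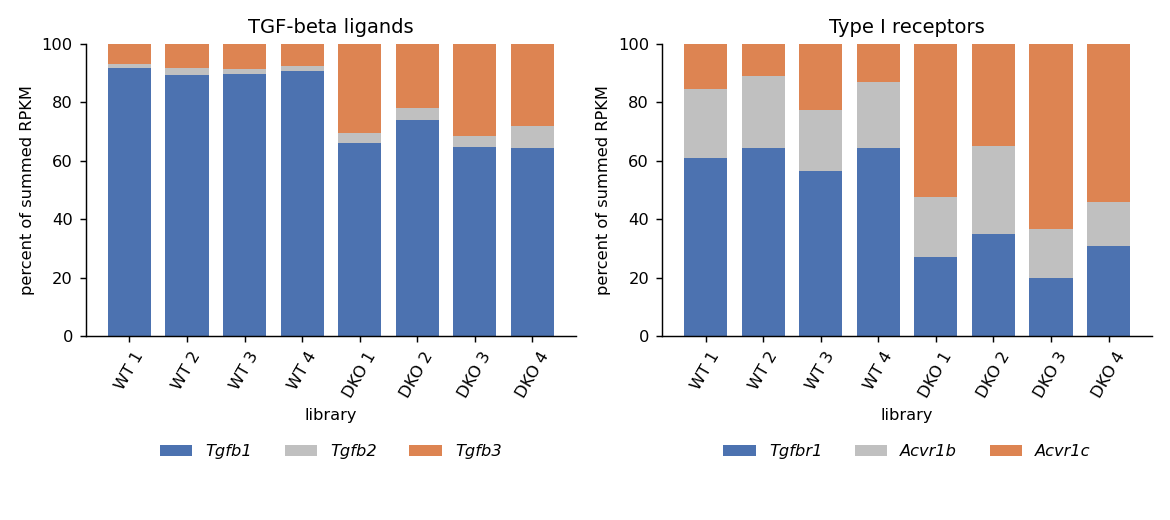
Share of each gene in its set (y axis, percent of the summed RPKM, coding transcript length), 1 stacked bar per library; left the 3 TGF-beta isoforms, right the 3 type I receptors that signal to Smad2 and Smad3. Tgfb1 (blue, left) takes 89.4% to 91.7% in the WT bars and 64.5% to 74.1% in the knockout (DKO) bars, and Acvr1c (orange, right) takes 11.1% to 22.6% and 34.8% to 63.4%.

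Both TGF-beta receptor genes fell. Tgfbr1, the type I receptor of TGF-beta, stood at 6.89, 6.91, 6.99 and 6.86 log2 CPM in WT and at 5.93, 6.16, 5.51 and 5.96 in the knockout. The WT libraries were close together and all above the knockout. The change was −1.02 ± 0.14 (2.03-fold lower, limma adjusted p = 0.000546), and −0.98 and −1.04 within the ribosomal RNA classes.

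Tgfbr2, the type II receptor that binds TGF-beta first, had 8.02, 8.08, 7.94 and 8.13 log2 CPM in WT and 7.43, 7.13, 7.70 and 7.64 in the knockout. The groups did not overlap, and the fall was smaller than that of Tgfbr1 in the estimate. The change was −0.57 ± 0.13 (1.48-fold lower, limma adjusted p = 0.00959), and −0.60 and −0.59 within the ribosomal RNA classes. In the 5 libraries with under 1% epididymis reads it was −0.47 and did not pass (adjusted p = 0.0654).

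Acvr1c had the largest change of the 10 genes. This receptor, ALK7, stood at 5.59, 5.05, 6.34 and 5.23 log2 CPM in WT and at 7.55, 6.83, 7.83 and 7.44 in the knockout. The WT libraries spread widely, and their highest, replicate 3, was still below the lowest knockout library, replicate 2. The change was 1.86 ± 0.30 (3.63-fold higher, limma adjusted p = 0.00141), and 1.83 and 2.32 within the ribosomal RNA classes. Among the changes of all tested genes, from the most negative up, Acvr1c lay at percentile 96.0 and Tgfb1 at percentile 5.61.

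The makeup of type I receptor transcripts that signal to Smad2 and Smad3 differed between the groups. Per kilobase, Acvr1c was 15.4%, 11.1%, 22.6% and 13.1% of the sum of Tgfbr1, Acvr1b and Acvr1c in WT and 52.4%, 34.8%, 63.4% and 54.0% in the knockout. Tgfbr1 was 61.5% ± 3.7 in WT and 28.2% ± 6.3 in the knockout (SD, n = 4). Tgfbr1 led in each WT library and Acvr1c in knockout replicates 1, 3 and 4, while in knockout replicate 2 the shares of Tgfbr1 and Acvr1c were 34.9% and 34.8%. Acvr1b itself did not change past the threshold (−0.08 ± 0.20, limma adjusted p = 0.764).

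Of the intracellular genes, Smad7 rose and Smad3 did not pass. Smad7, the inhibitor that targets the type I receptor for degradation, had 2.46, 2.97, 2.47 and 2.42 log2 CPM in WT and 3.40, 3.19, 3.31 and 4.03 in the knockout. WT replicate 2 and knockout replicate 2 were nearest each other, and the groups did not overlap. The change was 0.91 ± 0.23 (1.87-fold higher, limma adjusted p = 0.0138), and 0.95 and 0.55 within the ribosomal RNA classes. Smad7 was counted in as few as 22 reads in WT replicate 1, and it did not pass once all libraries were thinned to the depth of the shallowest (0.78, adjusted p = 0.0616) or with voom on whole reads (0.62, adjusted p = 0.0916).

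Smad3 carries the signal to the nucleus. Its levels were 5.38, 5.43, 5.22 and 5.43 log2 CPM in WT and 5.43, 5.74, 5.30 and 5.17 in the knockout. The groups overlapped, and the estimate of 0.05 ± 0.13 was near 0 (limma adjusted p = 0.806). Its sign turned with array weights, median centring (−0.10), quantile normalization and voom on whole reads, and no direction is given. Smad2, the other receptor-activated Smad of this branch, was at 0.01 ± 0.13 (adjusted p = 0.959), and Smad4, the shared partner, was at 0.22 ± 0.09 (adjusted p = 0.0708). Smad4 passed as higher with array weights (0.22, limma adjusted p = 0.0415).

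**Figure D3:**
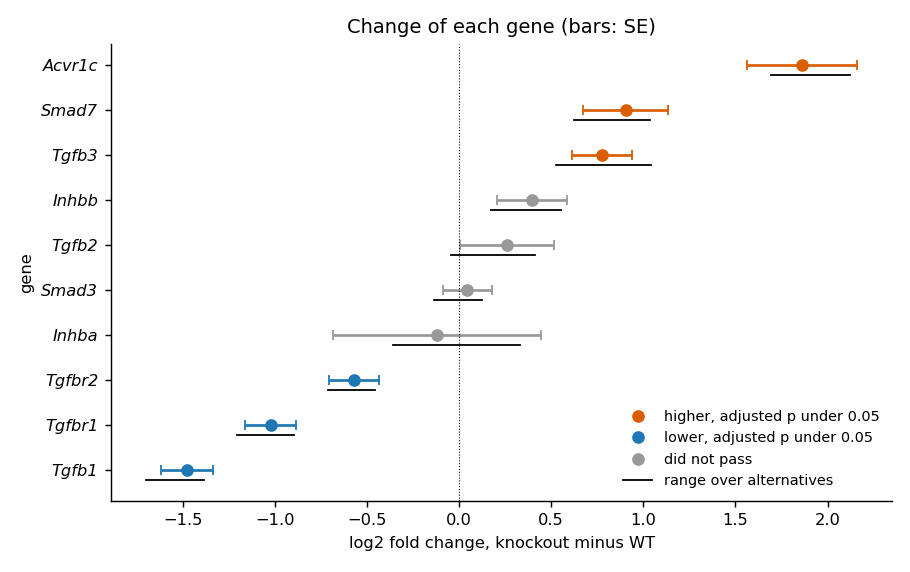
Log2 fold change, knockout minus WT (x axis), of each gene (y axis), with the SE as a bar; orange and blue points passed an adjusted p under 0.05 in limma (higher and lower) and grey points did not. The thin black line under each point is the range over the alternative settings, which for Tgfb1 runs from −1.70 to −1.38 and for Acvr1c from 1.69 to 2.12, and which crosses 0 for Tgfb2, Inhba and Smad3.

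The order of the levels per kilobase differed between the groups. In WT, Tgfb1 led with an RPKM of 58.4 ± 5.9, followed by Tgfbr2 with 32.6 ± 1.9 and Tgfbr1 with 20.9 ± 0.8, and the libraries of these 3 did not overlap. Inhbb at 9.92 ± 1.83, Smad3 at 8.10 ± 0.53, Acvr1c at 5.44 ± 2.37 and Tgfb3 at 5.03 ± 0.60 came next, and each overlapped its neighbour in the order. Smad7 at 1.40 ± 0.28 and Tgfb2 at 1.15 ± 0.28 overlapped each other, and Inhba was last with 0.09 ± 0.03.

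In the knockout Tgfbr2 at 22.2 ± 3.8, Tgfb1 at 21.2 ± 3.7 and Acvr1c at 19.2 ± 5.2 overlapped one another. Acvr1c thus went from place 6 of the 10 in WT to place 3, and Tgfbr1 from place 3 to place 5. Inhbb at 13.2 ± 2.8, Tgfbr1 at 10.4 ± 1.9, Tgfb3 at 8.72 ± 1.72 and Smad3 at 8.44 ± 1.47 followed, again with overlap between neighbours. Smad7 at 2.68 ± 0.77 was above Tgfb2 at 1.40 ± 0.41 without overlap, and Inhba stayed last at 0.09 ± 0.05. With the length of all annotated exons, Tgfb1 was in place 2 in WT and in place 5 in the knockout.

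The genes most like the members with the largest rise and fall were taken by Pearson's r of log2 CPM over the 8 libraries, as a description. For Acvr1c these were Abcd2, a peroxisomal fatty acid transporter, with r = 0.995, Dhdh with 0.995 and Tmem88b with 0.994. Tgfb1 was matched most closely by Tnfaip2, a gene induced by tumour necrosis factor, with r = 0.999, by Cotl1, an actin-binding protein, with 0.998, and by Psap, a lysosomal protein precursor, with 0.998. These libraries share the group difference, depth and ribosomal RNA class, all of which enter r.

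Marker levels moved with the members between the groups. The counts of markers below stand beside 22.7% higher and 16.1% lower among all tested genes. The summed level of 12 macrophage markers was 8778 to 10281 CPM in WT and 1944 to 2557 CPM in the knockout, and 12 of 12 passed as lower, beside the lower Tgfb1, Tgfbr1 and Tgfbr2. The 12 adipocyte markers summed to 8391 to 14851 CPM in WT and 21405 to 37544 CPM in the knockout, with 11 of 12 higher, beside the higher Acvr1c, Tgfb3 and Smad7. Acvr1c and the adipocyte sum were both highest in replicate 3 in either group. Tgfb3 and Smad7 were not: Tgfb3 was highest in WT replicate 2 and knockout replicate 1, and Smad7 in WT replicate 2 and knockout replicate 4. All 9 endothelial markers were higher, with 454 to 597 CPM in WT and 931 to 1254 CPM in the knockout. Of 10 fibroblast markers 1 was higher and 5 were lower, with 2743 to 3355 CPM and 1751 to 2647 CPM. Smooth muscle markers, 4 of 7 higher, summed to 252 to 400 CPM in WT and 547 to 3500 CPM in the knockout. The highest sum was in knockout replicate 4, where Smad7 and Tgfb2 were also highest. No marker of these 5 lists was at 0 in any library. Knockout replicate 4 also held 1.34% epididymis reads. Tgfb2 was at 3.34, 3.01 and 2.82 log2 CPM in knockout replicate 4, WT replicate 2 and knockout replicate 2, the libraries with over 1% epididymis reads. It was at most 2.71 in the others, and the part of epididymis reads was not tested. Mesothelial markers (4 of 6 higher) summed to 72.2 to 115 CPM in WT and 152 to 357 CPM in the knockout. The 7 T cell markers summed to 5.11 to 11.8 CPM in WT and 14.7 to 17.6 CPM in the knockout. Of the 6 T cell markers tested, 0 were higher and 0 lower past the threshold, and 1 of the 7 was at 0 in some library. In bulk tissue fewer cells of a type and less RNA per cell cannot be told apart, and the part of these marker changes in the members' changes was not tested.

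**Figure D4:**
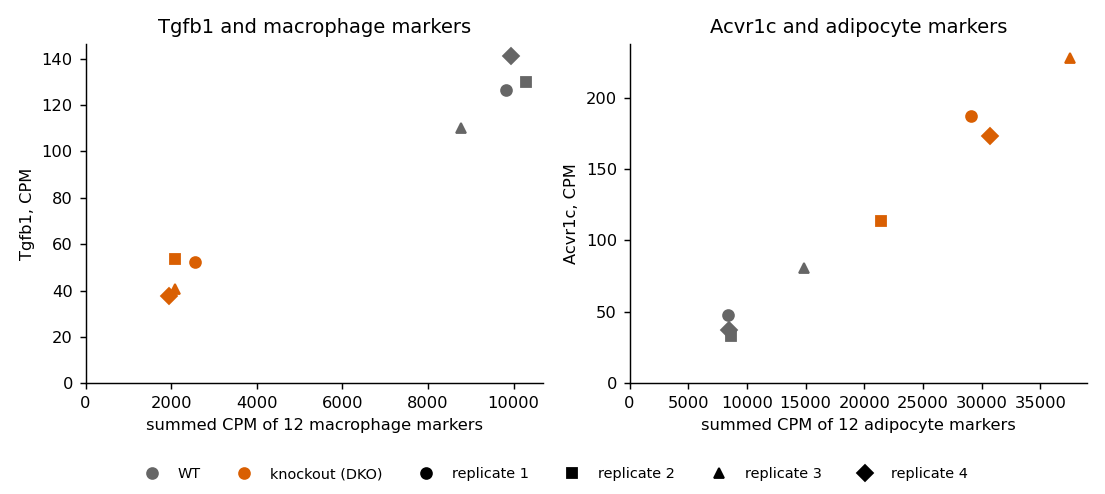
Left, Tgfb1 (y axis, CPM) against the sum of 12 macrophage markers (x axis, CPM), and right, Acvr1c against the sum of 12 adipocyte markers, 1 point per library (WT grey, knockout orange, shape giving the replicate number). The macrophage sum is 8778 to 10281 CPM in WT and 1944 to 2557 CPM in the knockout, and the adipocyte sum 8391 to 14851 CPM and 21405 to 37544 CPM, and both groups stay apart on each axis.

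The rest of the pathway was described from lists of its known parts. Of 14 genes of TGF-beta latency and activation, 12 were tested, 2 rose and 4 fell, with a median change of −0.26, beside 22.7% higher and 16.1% lower among all tested genes. With array weights 2 rose and 6 fell, and without the 3 libraries rich in epididymis reads 4 rose and 4 fell. Thbs1, an activator of latent TGF-beta named after its values were seen, was at 0.79 ± 0.47 (limma adjusted p = 0.205), and passed as higher without knockout replicate 4 (1.25, adjusted p = 0.016) as well as in the 5 libraries low in epididymis reads (1.25, adjusted p = 0.0283). Nrros, which tethers latent TGF-beta1 on macrophages and microglia, fell most (−1.74 ± 0.17, limma adjusted p = 0.000123), followed by Itgav (−1.36 ± 0.15), the alpha V integrin subunit of TGF-beta-activating integrins. Emilin1, a matrix glycoprotein that limits processing of the TGF-beta1 precursor, fell by 1.17 ± 0.14 on the log2 scale, and Itgb5, a partner of alpha V named after its values were seen, by 0.55 ± 0.10. The latent TGF-beta binding proteins Ltbp4 (1.21 ± 0.19) and Ltbp3 (0.75 ± 0.16, named after its values were seen) rose. Ltbp1, which stores latent TGF-beta in the matrix, did not pass (0.31 ± 0.14, limma adjusted p = 0.103). It passed as higher in the 5 libraries low in epididymis reads (0.56, adjusted p = 0.0338).

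Of the other ligands and their binding proteins, 8 of 15 listed genes were in the table and 6 were tested. Of these 1 was higher and 2 were lower (median −0.25), beside 22.7% higher and 16.1% lower among all tested genes. Gdf3, a ligand reported to act through ALK7 in fat, went from 3.85 ± 0.26 to −0.18 ± 0.68 log2 CPM (−4.03 ± 0.36, limma adjusted p = 7.49e-05), so the receptor Acvr1c rose where this ligand fell. Gdf15, a stress-induced member of the family, fell by 2.94 ± 0.32. Fstl3, a binding protein that blocks activins, rose (0.95 ± 0.25, adjusted p = 0.0165), though not without WT replicate 4 or under quantile normalization or voom on whole reads. Its relative Fst was at −0.62 ± 0.32 (adjusted p = 0.155), and without knockout replicate 4 it passed as lower (−0.90, adjusted p = 0.0319). Mstn, the gene of myostatin, lay under the filter at −2.18 ± 0.91 (limma adjusted p = 0.0963 in the fit with no filter). Without knockout replicate 2 Mstn passed as lower in that fit (−2.81, adjusted p = 0.0389).

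Among 11 other receptors 3 rose and 0 fell in limma, 27.3% called against 38.8% of all tested genes. The median was 0.55. It was 0.34 with the stricter filter at 2 log2 CPM, and 0.21 and 0.20 in the ribosomal RNA classes. At an unadjusted p under 0.05, 4 were higher and 0 lower, and voom on whole reads called Acvr2a lower (−0.43, adjusted p = 0.0426). Bmpr1a, a type I receptor of bone morphogenetic proteins, rose by 0.82 ± 0.17 (limma adjusted p = 0.00549). The co-receptor Eng, common on endothelium, rose by 0.55 ± 0.12 (adjusted p = 0.00579), and Tgfbr3, the co-receptor betaglycan, by 0.78 ± 0.21 (adjusted p = 0.0189). Eng did not pass with median centring (adjusted p = 0.0614), nor Tgfbr3 without WT replicate 1 or 4 or knockout replicate 3 or with the ribosomal RNA class in the model. In the limma fit the activin type II receptors did not pass, with Acvr2a at −0.23 ± 0.13 (adjusted p = 0.202) and Acvr2b at 0.84 ± 0.45 (adjusted p = 0.170).

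Of 20 tested other Smads and regulators 6 rose and 3 fell (median 0.17), 45.0% called against 38.8% of all tested genes. Under median centring, quantile normalization and voom on whole reads 4 rose and 4 fell, and the median was 0.0244, 0.11 and 0.0156. Smad5 (0.62 ± 0.13) and Smad9 (3.24 ± 0.56, from 20 WT reads in all), which carry the signals of bone morphogenetic proteins, rose. So did Smad6 (1.04 ± 0.25, named after its values were seen), an inhibitory Smad like Smad7. The nuclear repressor Tgif1 fell by 1.47 ± 0.30, and the adaptor Dab2 by 0.82 ± 0.15.

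Of 22 known target genes of TGF-beta 13 fell and 3 rose, with a median change of −0.88, beside 16.1% and 22.7% of all tested genes. With the ribosomal RNA class in the model 11 fell and 1 rose (median −0.67). In the 5 libraries with under 1% epididymis reads 10 fell and 3 rose (−0.85), and with array weights 14 fell and 3 rose (−1.04). Within the ribosomal RNA classes the median was −0.56 and −0.97. Timp1, an inhibitor of matrix proteases, fell most (−3.14 ± 0.26, limma adjusted p = 5.91e-05), and Postn, a matricellular protein, fell by 2.39 ± 0.33. The transcription factor genes Junb (−1.20 ± 0.20) and Snai1 (−1.11 ± 0.20) were lower. Ctgf, a common readout of TGF-beta, was at 0.40 ± 0.25 (adjusted p = 0.226). The 3 that rose, named after their values were seen, were Acta2 (1.77 ± 0.50), Tagln (1.77 ± 0.49) and Cyr61 (0.69 ± 0.17). Acta2 and Tagln are also on the smooth muscle list, whose sum was highest in knockout replicate 4, and without that library they were at 1.22 and 1.20 and passed. They did not pass without WT replicate 1 or 4, or with the ribosomal RNA class in the model, and Cyr61 did not pass with reads thinned. Many of these targets are also made by fibroblasts and macrophages. All 12 macrophage markers were lower, while of 10 fibroblast markers 5 were lower, 1 was higher and 4 did not pass. The part of these cell types in the counts was not tested.

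**Figure D5:**
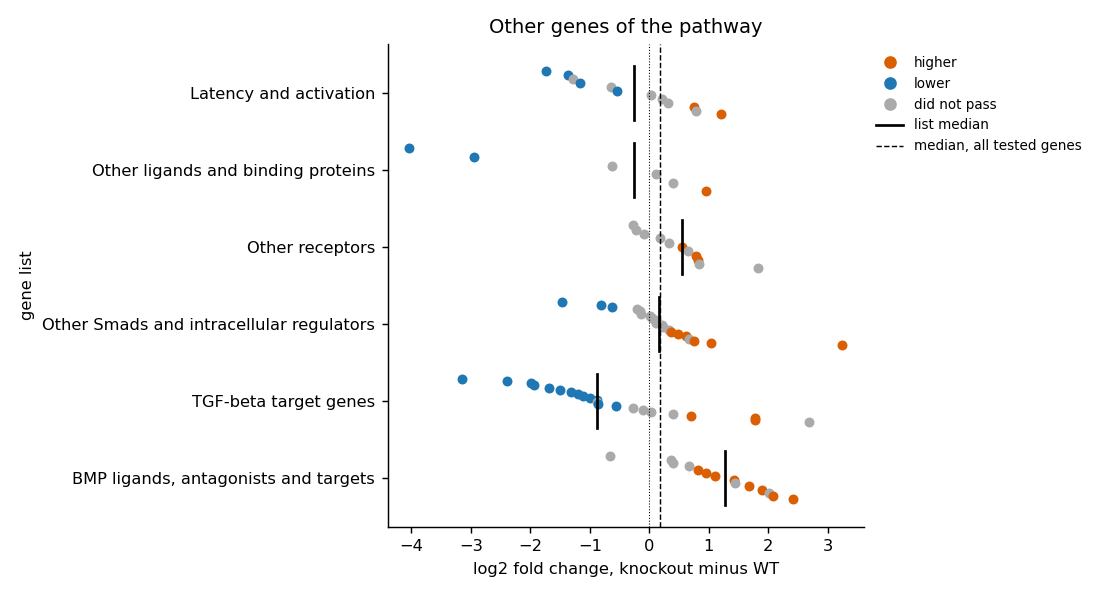
Log2 fold change, knockout minus WT (axis in log2 units), of every tested gene of the pathway lists, 1 point per gene and 1 row per list, orange (higher) or blue (lower) where it passed an adjusted p under 0.05 in limma; solid bars are list medians and the dashed line is the median of all tested genes, 0.18. The TGF-beta target genes lie mostly below 0 with a median of −0.88. The listed bone morphogenetic protein (BMP) ligands, antagonists and targets lie mostly above 0 with a median of 1.27.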

How the data were processed

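The authors deposited 1 table with a voom log2 CPM value of each of 16505 genes in 8 libraries, 1 column per mouse, each matched to a sample by its title. Per the labels' protocols, stranded polyA libraries were read as 75-base single ends. Per the submitters' processing notes, the tools included Trimmomatic, TopHat2, featureCounts and limma with build mm9. Their versions, settings and use of strand in counting are not stated there. In GENCODE M21 no member overlaps another gene on its own strand, and Tgfb2, Tgfb3, Inhba and Acvr1c overlap genes on the opposite strand (Tgfb3 overlaps 3, among them Ttll5). Gene positions are left out, since GENCODE M21 follows GRCm38 and not mm9.

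The deposited log2 values gave whole reads (100% within 0.01 read), with 0.5 added to each count and 1 to each total, and no further scaling. Depth is therefore known from 3736881 to 76838584 reads, and ribosomal RNA and epididymis shares have Wilson 95% intervals of at most 0.0310 points either side, for counting error only.

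Genes averaging 0 log2 CPM or more were fitted with limma 3.58.1 in R 4.3.3 (lmFit, then eBayes with its trend option, group as the only term, two-sided, Benjamini-Hochberg over 13797 genes at 0.05). Reads per kilobase used the longest protein-coding transcript in GENCODE M21, and 3′ UTRs were matched by symbol for 93.2% of tested genes. The script was tested on simulated data. Members, lists and tests were chosen with earlier results of these data known. Named genes are the 10 members, up to 4 genes of each list with the smallest p among those past the threshold, a fixed set (Fst, Fstl3, Gdf3, Mstn, Acvr1b, Acvr2a, Acvr2b, Tgfbr3, Smad2, Smad4, Ltbp1, Ctgf and 1 gene not reported here) and the 3 genes most correlated with Acvr1c and with Tgfb1. Genes named after their values were seen are marked. The lists were described by counts and medians, with no list test.

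Alternatives were log2(CPM + 1), no filter, a filter at 2, quantile normalization, median centring, array weights, a robust fit, no variance trend, voom on whole reads with median-ratio size factors, thinned reads, the replicate number as a block, removal of ribosomal RNA genes, covariates for ribosomal RNA class and epididymis level, the 5 libraries with under 1% epididymis reads, and leaving out each library. The exon-union length and leaving out libraries for Inhba and Mstn were added after the data were seen.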

Additional observations from a re-analysis of the deposited data

Results flagged for a closer look

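In 7 of the 108 groups of 4 libraries examined (a named gene in WT or in the knockout), 1 library stood apart from the other 3. Chance gives such a library in about 1 of 20 groups. All 7 were WT libraries. Among the members, Tgfb2 in WT replicate 2 was at 3.01 log2 CPM, against 2.38 to 2.43 in the other 3, and Smad7 in the same library at 2.97, against 2.42 to 2.47. WT replicate 2 was the WT library with the least ribosomal RNA and the only one with over 1% epididymis reads, and their part in these values was not tested. In the other lists, Nrros was at 7.47 in WT replicate 1 (7.36 to 7.38 in the others) and Smad5 at 5.63 in WT replicate 4 (5.98 to 6.02). Bmp6 was at 3.005 in WT replicate 3 (2.33 to 2.40), Bmp4 at 2.46 in WT replicate 1 (1.65 to 1.73) and Col1a1 at 10.17 in WT replicate 4 (9.59 to 9.68). Bmp4 and Col1a1 were named after their values were seen.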

How the results depend on the processing

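Over 23 alternatives each, Tgfb1, Tgfb3, Tgfbr1 and Acvr1c kept their direction and passed in all 23, Tgfbr2 in 22 and Smad7 in 21. Tgfbr2 did not pass in the libraries with under 1% epididymis reads (−0.47), nor Smad7 with thinned reads (0.78) or voom on whole reads (0.62), and the cause was not tested. Leaving out libraries in turn gave Inhbb values of 0.30 to 0.55 (0.55, past the threshold, without knockout replicate 4) and Inhba values of −0.36 to 0.33 (0.33 without knockout replicate 4 and 0.02 without WT replicate 2). Tgfb2 turned to −0.0438 under quantile normalization and −0.0376 under voom on whole reads. Smad3 turned to −0.0163 with array weights, −0.10 with median centring, −0.0308 with quantile normalization, −0.14 with voom on whole reads, −0.0216 without ribosomal RNA genes, −0.0633 without knockout replicate 2 and −0.00262 without WT replicate 3, and leaving out libraries in turn gave up to 0.13. Within the ribosomal RNA classes Tgfb1 was −1.26 in the class with more, Tgfb3 1.18 and 0.51, and, in the class with less, Tgfb2 −0.17 and Smad7 0.55.

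Among other genes, Acvr1b ran from −0.27 to 0.0771 as libraries were left out (0.0771 without knockout replicate 4). Smad2 turned to −0.00157 with array weights, −0.0349 with the epididymis covariate, −0.13 with median centring, −0.0681 with quantile normalization, −0.00141 with thinned reads, −0.0475 with the ribosomal RNA covariate, −0.18 with voom, −0.0565 without ribosomal RNA genes, −0.0182 without knockout replicate 4 and −0.11 without WT replicate 1, and was 0.0668 at most with a library left out. The median of the other ligands (−0.25) turned to 0.16 with a filter at 2, which left 2 genes, and was −0.82 with the ribosomal RNA covariate and −1.18 within the class with more ribosomal RNA. Of all calls 58.6% were higher, and 46.4% with median centring, 48.2% with quantile normalization and 44.9% with voom. The median change of all genes was 0.18 and went to 0.03, 0.05 and 0.04 in these 3.

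With the replicate number as a block (replicate block), 3232 genes were higher and 2136 lower, against 3137 and 2216, and 4 other receptors were called in place of 3. The numbers were not taken to pair the samples: the deviations of same-numbered libraries correlated at 0.36, 0.79 and 0.24 in 3 pairs but at −0.36 in the fourth, no label gives a shared litter or day, and 2 of 8 libraries correlated best with their own number. Values of Inhba, Tgfb2 and Smad7 in the shallow libraries are limited by depth.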

Other observations

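The bone morphogenetic protein (BMP) branch uses its own ligands and the receptor-activated Smad1, Smad5 and Smad9. Its listed genes, which mix ligands with their antagonists and targets, mostly had changes above 0. Of 18 listed ligands, antagonists and targets in the table, 14 were tested, 8 rose and 0 fell in limma, beside 22.7% and 16.1% of all tested genes, with a median change of 1.27. At an unadjusted p under 0.05, 10 were higher and 1 lower (Id2, named after its values were seen). Voom on whole reads, median centring, quantile normalization, the epididymis covariate and removal of ribosomal RNA genes each called 8 higher and 1 lower. With the ribosomal RNA covariate, and without knockout replicate 4, 7 were higher and 1 lower. In the 5 libraries with under 1% epididymis reads 9 were higher and 1 lower. Chrdl1, a secreted antagonist, rose from 5.45 ± 0.36 to 7.86 ± 0.77 log2 CPM (2.41 ± 0.35, limma adjusted p = 0.000876). Bmp6, a ligand also known for its role in iron control, rose by 1.43 ± 0.21 (adjusted p = 0.000858), and Gdf10, a BMP-related ligand, by 0.82 ± 0.15. The antagonist Chrd rose by 1.89 ± 0.34. Named after their values were seen, the ligand Bmp7 was at 2.08 ± 0.73 (adjusted p = 0.0496) and passed in 12 of 22 alternatives, the ligand Bmp4 rose by 1.68 ± 0.32 and the target Id3 by 1.11 ± 0.20. The targets Id1, Id2 and Id4 did not pass (limma adjusted p = 0.0627, 0.0674 and 0.491). Smad1, outside this list, was at 0.04 ± 0.14 (limma adjusted p = 0.833). Id1, Id4 and Smad1 were also named after their values were seen. Endothelial and adipocyte markers were also higher, and their part in these values was not tested.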
